A study of Mus musculus with 8 samples.

Results

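The genes described here encode 34 enzymes of central carbon metabolism: 16 of the tricarboxylic acid (TCA) cycle and its cytosolic counterparts, 5 of anaplerosis and glutamate metabolism, and 13 of fatty acid oxidation. They were chosen by symbol from a list, matched through the Ensembl identifier, and all 34 were found among the 26589 genes measured. The cells were splenic B cells of IL-10-eGFP Tiger mice, a strain in which transcription of Il10 is reported by green fluorescent protein. All of them were cultured with lipopolysaccharide (LPS), a bacterial ligand of Toll-like receptor 4, at 3 µg/ml for 48 h, and were then separated into IL-10+ and IL-10- cells. RNA of 4 IL-10+ and 4 IL-10- samples was sequenced, which gave 8 libraries numbered 1 to 4 within each group. The sources used here give neither the age and number of the mice nor any pooling, and they leave unsaid what a replicate number stands for. The p-values therefore measure only how far these libraries scatter, and part of that scatter may be technical. Both groups received LPS, and cells without LPS are not analysed here.

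The TCA cycle oxidises acetyl-CoA in the mitochondrion and hands the electrons to the respiratory chain as NADH and FADH2. Anaplerotic reactions refill the cycle: pyruvate carboxylase makes oxaloacetate, and glutamate derived from glutamine enters as α-ketoglutarate. Fatty acid oxidation imports acyl groups on carnitine and shortens them to acetyl-CoA in repeated rounds of dehydrogenation, hydration, a second dehydrogenation and thiolysis. The malate-aspartate shuttle, built from cytosolic and mitochondrial pairs of malate dehydrogenase and aspartate aminotransferase, carries reducing equivalents from the cytosol into the mitochondrion. B cells activated by LPS are known to raise both glycolysis and mitochondrial oxidation as they grow and divide. Despite the name of the list, no member acts on glutamine itself, and it holds no succinate dehydrogenase subunit and no mitochondrial aconitase. Those enzymes were taken from further lists.

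Library totals recovered from the deposited values were 27380398 to 29968285 reads. Il10, the gene of the sort, averaged 36.9 ± 5.32 FPKM in IL-10+ cells against 3.17 ± 1.48 FPKM in IL-10- cells (SD, n = 4 each), which checks the labels and is no finding. FPKM are reads scaled by gene length and by the read total of the library. Set side by side between genes, FPKM depend on the gene lengths used. Between libraries they also move with what else was sequenced, and the other scalings below bear on that. Immunoglobulin genes took 13.2% to 16.8% of the summed FPKM in IL-10+ libraries and 3.73% to 4.73% in IL-10- libraries. Summed B cell markers were 1230 to 1553 FPKM in IL-10+ libraries and 1390 to 1886 FPKM in IL-10- libraries, with Cd79a the highest of them, and 3 of the 6 were called lower in IL-10+ cells. Of the 6 plasmablast markers, 6 were called higher in IL-10+ cells, with sums of 1331 to 1357 FPKM against 315 to 442 FPKM in IL-10- libraries. Plasmablast markers therefore moved with every comparison below, and their part in it was not tested. Of the 6 T cell markers 1, Lck, was above the filter and was called lower, and the sums were 1.59 to 2.81 FPKM in IL-10+ libraries and 4.40 to 5.42 FPKM in IL-10- libraries. Summed myeloid, neutrophil, NK cell and dendritic cell markers were each at most 1.36 FPKM in any library, and erythroid markers were 0.657 to 1.0 FPKM in IL-10+ libraries and 1.99 to 3.01 FPKM in IL-10- libraries. In bulk RNA a smaller number of cells of a type and less RNA per cell cannot be told apart.

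Transcripts of these enzymes differed little between the groups. The aspartate aminotransferase gene Got1 rose in IL-10+ cells and the medium-chain acyl-CoA dehydrogenase gene Acadm fell, and the other members tested did not pass. That is 2 of the 33 members tested, or 6.06%, against 19.7% of the 11329 genes tested (10.6% called higher, 9.18% called lower). The test was limma on log2(FPKM + 1) over every gene that reached 1 FPKM in 4 or more libraries, and calls were made at an adjusted p (Benjamini-Hochberg over all of them) under 0.05. At an unadjusted p under 0.05 limma gave 8 of the 33 members, 6 of them higher, against 3710 of the 11329 genes tested, 1657 of them higher. The median log2 difference was -0.00 over the members and -0.06 over all tested genes. The differences ran between -0.33 for Fh1 and 0.36 for Got1, and 0 members reached an absolute log2 difference of 0.5, against 12.9% of all tested genes. These are differences of log2(FPKM + 1). In plain FPKM the ratio of IL-10+ over IL-10- means was 1.31 for Pcx, above the 1.29 of Got1. With either of the other scalings, Acadm lost its call while Got1 was joined by Pcx or by Pcx and Acadl. In numbers, 2 members were higher and 0 lower with median-of-ratios scaling (all tested genes: 18.6% called, 11.6% higher and 7.03% lower), and 3 were higher and 0 lower when immunoglobulin and mitochondrial genes were left out of the library totals (18.3% called, 11.4% higher and 6.92% lower).

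Libraries of the same replicate number deviated together, and with the number as a block 19 members passed, or 57.6%, against 53.7% of all tested genes. With this block 11 members rose (all tested genes: 20.4% called higher) and 8 fell (all tested genes: 33.3% called lower). With the block and either of the other scalings the split was 13 higher and 6 lower. Over all tested genes those fits called 49.6% with median-of-ratios scaling (23.1% higher, 26.5% lower) and 50% without immunoglobulin and mitochondrial genes (22.5% higher, 27.5% lower). Of the 19 members, 17 kept their call under both scalings with the block, and Me2 and Echs1 did not. Of the same 19, 14 were called in each of the 4 fits that left out both libraries of a number. The other 5 were Me2, Pcx, Cpt1a, Acadvl and Echs1, and all 19 kept their sign in those fits. How many of all tested genes kept their call or sign there was not counted, so these counts have no baseline. In 12 members the IL-10+ library was higher in all 4 numbers (24.3% of all tested genes), and in 9 it was lower in all 4 (40.4%; either direction 64.7%). Values of the groups did not overlap in 6 members (25.2% of all tested genes): Got1, Pcx and Acadl were higher and Acadm, Idh3b and Suclg2 lower in IL-10+ cells.

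**Figure D1:**
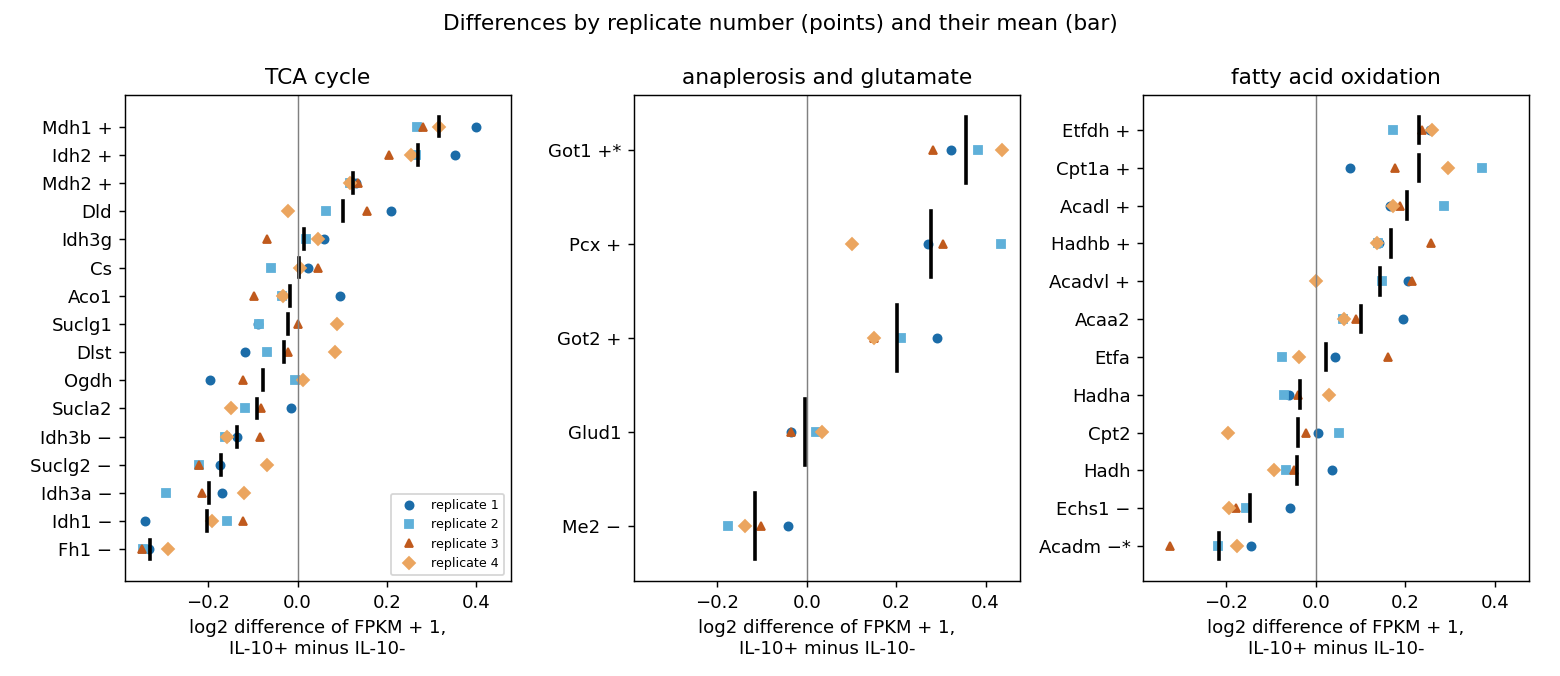
Log2 differences of FPKM + 1, IL-10+ minus IL-10-, for the 33 tested members in 3 panels by role; points are the 4 replicate numbers and black bars their means. A star marks a call without the block, + and − mark calls as higher or lower with the replicate number as a block, and every mean lies between -0.33 and 0.36.

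Levels spanned a wide range. Mdh2 was the highest, with a mean of 81.7 FPKM over the 8 libraries, 7 members lay over 50 FPKM and 9 under 10 FPKM. At the low end Pcx, the gene of pyruvate carboxylase, averaged 2.72 ± 0.208 FPKM in IL-10+ cells against 2.07 ± 0.269 FPKM in IL-10- cells (SD, n = 4 each). Etfb, the gene of the β subunit of the electron transfer flavoprotein, stayed under the filter and was not tested. Its values were 0.502, 0.492, 0.298 and 0.675 FPKM in IL-10+ libraries and 0.583, 0.362, 0.488 and 0.459 FPKM in IL-10- libraries, from 10 to 22 reads each. Its partner subunit gene Etfa averaged 55.3 ± 5.90 FPKM in IL-10+ cells against 54.4 ± 5.71 FPKM in IL-10- cells (SD, n = 4 each). In GENCODE M21, 58.2% of the exon length of Etfb lies under Gm45233 and Mir7051 on the same strand, and since the sources used here do not give how shared reads were counted, the low value is uncertain.

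Within the TCA cycle, 0 of 16 members were called by limma without the block, against 19.7% of all tested genes. In the same fit 2 of the 16, Idh2 and Suclg2, had an unadjusted p under 0.05. Of all 11329 tested genes 3710 had such an unadjusted p. With the block 3 rose and 5 fell, against 20.4% called higher and 33.3% called lower of all tested genes. The median log2 difference of the 16 was -0.03, and it lay between -0.10 without IL-10- library 1 and 0.02 without IL-10+ library 1. The members that moved with the block did not all move one way along the cycle. The malate dehydrogenase genes and Idh2 rose, while Idh1, Idh3a, Idh3b, Suclg2 and Fh1 fell.

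Malate dehydrogenase interconverts malate and oxaloacetate, Mdh1 in the cytosol and Mdh2 in the mitochondrion. Mdh1 measured 71.3, 89.7, 100.2 and 97.3 FPKM in IL-10+ libraries 1 to 4 and 53.8, 74.4, 82.3 and 77.9 FPKM in IL-10- libraries 1 to 4. Each IL-10+ library was above the IL-10- library of its number, and the groups overlapped only through IL-10+ library 1, which lay below 3 of the IL-10- libraries. The log2 difference was 0.32 (SE 0.155, adjusted p = 0.198), and with the block the SE was 0.0315 (adjusted p = 0.000680). Mdh2 measured 68.3, 83.0, 96.6 and 93.1 FPKM in IL-10+ libraries and 62.4, 76.5, 87.8 and 85.8 FPKM in IL-10- libraries. Its log2 difference was smaller, 0.12 (SE 0.141, adjusted p = 0.584), and nearly the same in every number, between 0.12 and 0.14, so that with the block the adjusted p was 0.00650. Without the block the difference was 0.02 when IL-10- library 1 was left out and 0.23 when IL-10+ library 1 was left out.

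Isocitrate dehydrogenase comes in 3 forms, which went different ways with the block. Idh1 encodes the cytosolic and Idh2 the mitochondrial NADP-linked enzyme, and Idh3a, Idh3b and Idh3g encode the α, β and γ subunits of the NAD-linked enzyme of the cycle. Idh2 measured 17.1, 20.7, 19.6 and 21.4 FPKM in IL-10+ libraries and 13.2, 17.1, 16.9 and 17.8 FPKM in IL-10- libraries. It was higher in IL-10+ cells in each number, with a log2 difference of 0.27 (SE 0.108, adjusted p = 0.122, with the block 0.00158). Idh1 measured 5.31, 6.66, 7.25 and 7.81 FPKM in IL-10+ libraries and 7.0, 7.54, 7.97 and 9.06 FPKM in IL-10- libraries. It was lower in IL-10+ cells in each number, with a log2 difference of -0.20 (SE 0.115, adjusted p = 0.265, with the block 0.0140).

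Of the NAD-linked enzyme, the catalytic α subunit gene Idh3a averaged 26.9 ± 5.51 FPKM in IL-10+ cells against 31.0 ± 5.77 FPKM in IL-10- cells (SD, n = 4 each). Its log2 difference was -0.20 (adjusted p = 0.473, with the block 0.00606). Idh3b measured 40.5, 43.2, 44.1 and 43.8 FPKM in IL-10+ libraries and 44.5, 48.5, 46.8 and 49.0 FPKM in IL-10- libraries, with no overlap and a log2 difference of -0.13 (adjusted p = 0.162, with the block 0.00825). Idh3g, the γ subunit gene, averaged 68.2 ± 3.89 FPKM in IL-10+ cells against 67.5 ± 3.85 FPKM in IL-10- cells (SD, n = 4 each) and passed neither without nor with the block (adjusted p = 0.919 and 0.741). Mean FPKM of the 3 subunit genes was highest for γ and lowest for α in both groups. This order depends on the gene lengths used for FPKM, so it does not tell which transcript was more abundant. Recovered reads over the 8 libraries were 2907 to 5299 for Idh3a, 3793 to 5023 for Idh3b and 4891 to 5607 for Idh3g.

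Fh1, which encodes fumarate hydratase, had the lowest log2 difference of the members. It measured 19.9, 25, 28.9 and 29.9 FPKM in IL-10+ libraries and 25.3, 32, 37.1 and 36.8 FPKM in IL-10- libraries. The groups overlapped, yet within each number the log2 difference was between -0.35 and -0.29. Without the block the log2 difference of -0.33 had an SE of 0.158 (adjusted p = 0.190), and with it an SE of 0.0259 (adjusted p = 0.000308).

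**Figure D2:**
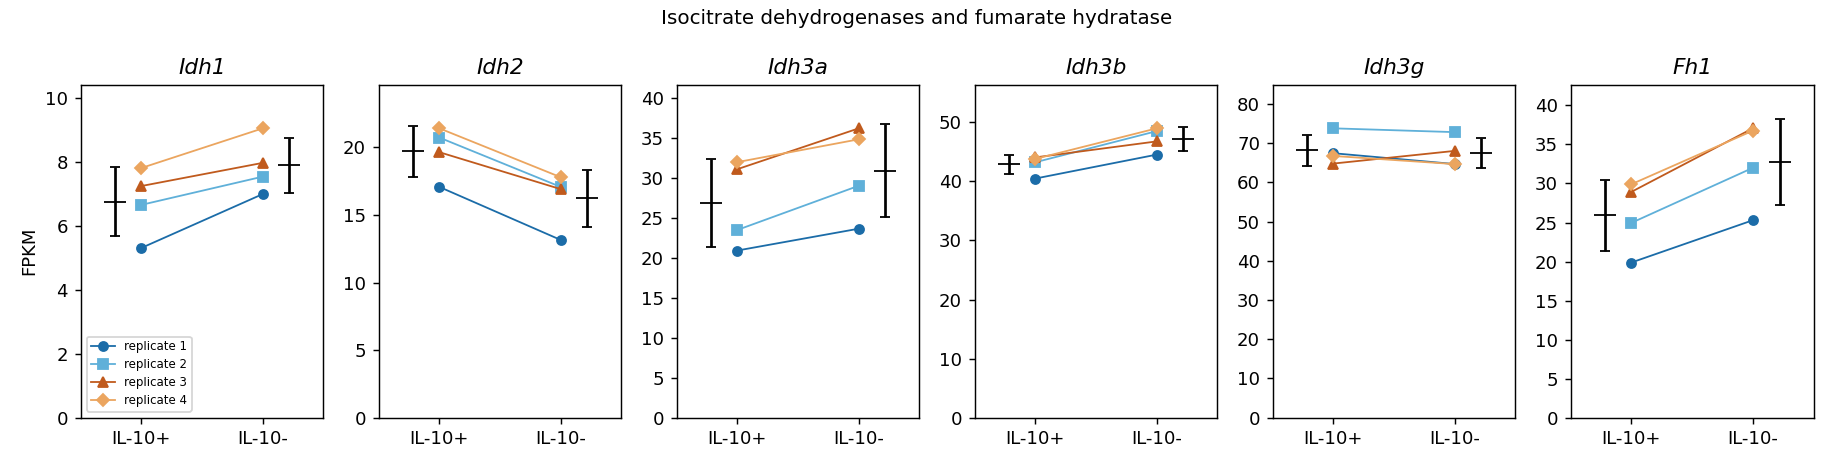
FPKM of the isocitrate dehydrogenase genes and Fh1 in each library, IL-10+ left of IL-10-; lines join libraries of the same replicate number, and the bars beside the points are the mean ± SD of 4 libraries. Every line falls to the right for Idh2 and climbs to the right for Idh1, Idh3a, Idh3b and Fh1, while the lines of Idh3g are mixed.

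Succinyl-CoA synthetase pairs an α subunit (Suclg1) with a β subunit that sets the nucleotide, GTP for Suclg2 and ATP for Sucla2. Suclg2 averaged 17.0 ± 0.753 FPKM in IL-10+ cells against 19.2 ± 0.997 FPKM in IL-10- cells (SD, n = 4 each), with no overlap between the groups and a log2 difference of -0.17 (adjusted p = 0.0923, with the block 0.0108). Sucla2 averaged 16.1 ± 1.24 FPKM in IL-10+ cells against 17.2 ± 1.85 FPKM in IL-10- cells and did not pass in either fit (adjusted p = 0.543, with the block 0.0645). Suclg1 averaged 20.3 ± 3.51 FPKM in IL-10+ cells against 20.6 ± 2.59 FPKM in IL-10- cells (adjusted p = 0.937, with the block 0.671).

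The remaining cycle members passed in neither fit. Cs, the gene of citrate synthase, which starts the cycle, averaged 76.5 ± 5.33 FPKM in IL-10+ cells against 76.3 ± 5.04 FPKM in IL-10- cells (log2 difference 0.00, SE 0.0768, with the block 0.0280; SD, n = 4 each). The α-ketoglutarate dehydrogenase complex is encoded by Ogdh, Dlst and Dld, whose last subunit it shares with pyruvate dehydrogenase. Ogdh averaged 48.0 ± 7.33 FPKM in IL-10+ cells against 50.7 ± 7.12 FPKM in IL-10- cells, Dlst 19.1 ± 1.98 against 19.5 ± 0.951 FPKM, and Dld 41.3 ± 3.53 against 38.5 ± 3.87 FPKM. Dld had an adjusted p of 0.104 with the block and passed as higher only when another scaling was added (0.0372 with median-of-ratios and 0.0498 without immunoglobulin and mitochondrial genes). Aco1, a cytosolic aconitase that also serves as an iron-regulatory protein, averaged 11.9 ± 0.797 FPKM in IL-10+ cells against 12.1 ± 1.43 FPKM in IL-10- cells. The signs of Aco1, Dlst and Suclg1 turned with the scaling, and those of Cs and Idh3g between subsets of the libraries.

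In the anaplerosis and glutamate group 1 of 5 members rose, and 3 rose and 1 fell with the block. Of all tested genes 10.6% were called higher without the block, and 20.4% higher and 33.3% lower with it. The median log2 difference of the 5 was 0.20, and 0.08 without IL-10- library 1. Got1, the cytosolic aspartate aminotransferase, makes aspartate and α-ketoglutarate from glutamate and oxaloacetate or runs in reverse. Its position in GRCm38 is chromosome 19, from 43499752 to 43524605 on the minus strand (ENSMUSG00000025190). Got1 measured 76.9, 87.1, 74.9 and 77.2 FPKM in IL-10+ libraries 1 to 4 and 61.3, 66.5, 61.4 and 56.8 FPKM in IL-10- libraries 1 to 4. Every IL-10+ library was above every IL-10- library. Means were 79.0 ± 5.47 FPKM in IL-10+ cells against 61.5 ± 3.98 FPKM in IL-10- cells (SD, n = 4 each), a ratio of 1.29. The log2 difference was 0.36 (SE 0.0748, adjusted p = 0.0105, with the block 0.000568), and the call held in each of the 8 fits that left out a library, with adjusted p between 0.0138 and 0.0335.

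The 250 bases before the start of Got1 are shown because it is the member that rose without the block (RefSeq, GRCm38.p6, chr19:43524606-43524855, minus strand, 5′ to 3′). None of the 5 motifs searched, which are spelled out further on, lies in it.
Got1: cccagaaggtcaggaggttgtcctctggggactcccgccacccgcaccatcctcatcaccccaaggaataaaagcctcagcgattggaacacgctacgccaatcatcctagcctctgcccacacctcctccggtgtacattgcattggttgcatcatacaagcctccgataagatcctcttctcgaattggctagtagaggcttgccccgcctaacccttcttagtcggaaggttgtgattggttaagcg

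Got2, the mitochondrial aspartate aminotransferase, measured 51.3, 58.7, 70.6 and 71.1 FPKM in IL-10+ libraries and 41.7, 50.6, 63.5 and 63.9 FPKM in IL-10- libraries. Within each number the IL-10+ library was the higher, but numbers 3 and 4 stood above 1 and 2 in both groups by more than the groups differed. Its log2 difference was 0.20 (SE 0.161, adjusted p = 0.433, with the block 0.00447). In GENCODE M21, 9.0% of its exon length overlaps Gm45760 on the other strand. Glud1, glutamate dehydrogenase, which turns glutamate into α-ketoglutarate, measured 39.1, 41.7, 44.0 and 43.0 FPKM in IL-10+ libraries and 40.0, 41.1, 45.1 and 41.9 FPKM in IL-10- libraries. Its log2 difference was -0.00 (SE 0.0655, adjusted p = 0.978, with the block 0.921), and the sign turned with the scaling.

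Pcx measured 2.51, 2.78, 2.99 and 2.61 FPKM in IL-10+ libraries and 1.91, 1.79, 2.23 and 2.37 FPKM in IL-10- libraries. Every IL-10+ library was above every IL-10- library, and the log2 difference was 0.28 (SE 0.0850), just short of the threshold without the block (adjusted p = 0.0517) and past it with the block (0.0167). It also passed without the block under median-of-ratios scaling (0.0404). Me2, the mitochondrial NAD-linked malic enzyme, which makes pyruvate from malate, averaged 37.7 ± 6.59 FPKM in IL-10+ cells against 41.0 ± 7.85 FPKM in IL-10- cells (SD, n = 4 each). Its log2 difference was -0.11 (adjusted p = 0.691, with the block 0.0257), and the call was lost when a scaling was added to the block (0.0816 and 0.0705).

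**Figure D3:**
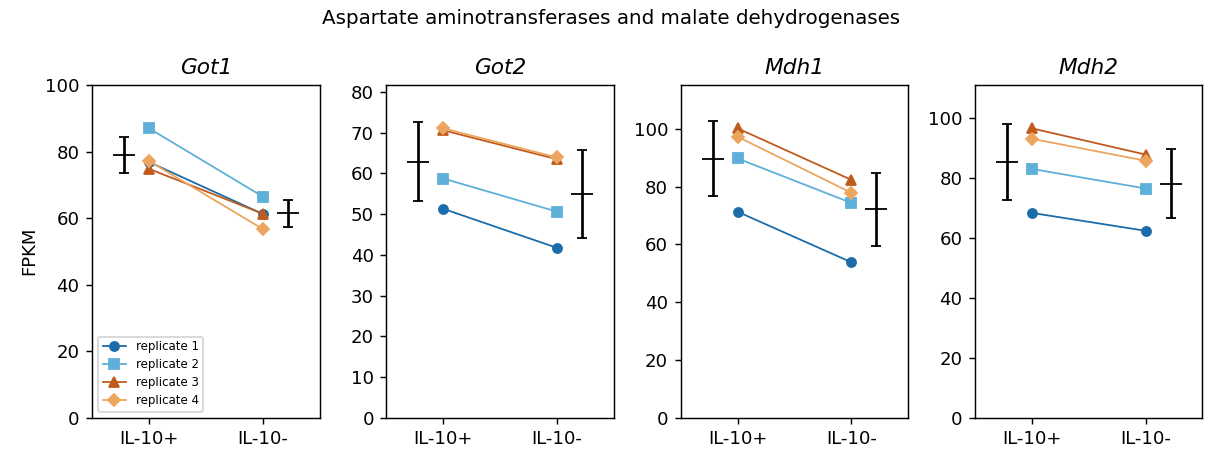
FPKM of the aspartate aminotransferase genes Got1 and Got2 and the malate dehydrogenase genes Mdh1 and Mdh2 in each library, IL-10+ left of IL-10-; lines join libraries of the same replicate number, and the bars are the mean ± SD of 4 libraries. All 4 lines fall to the right in each panel, and only the Got1 groups do not overlap.

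Plain ratios of FPKM within a library do not move with its scaling, and they are printed here for 4 pairs of related enzymes. The exact two-sided permutation tests, with Benjamini-Hochberg adjustment over the 4, used log2 ratios after adding 1 to each FPKM. Those can move slightly with the scaling and understate differences of low genes. The smallest p that 4 against 4 libraries allow is 0.0286. Idh2 over Idh1 was 3.21, 3.11, 2.71 and 2.74 in IL-10+ libraries and 1.88, 2.26, 2.12 and 1.96 in IL-10- libraries. The mean ratio was 2.94 ± 0.257 in IL-10+ and 2.06 ± 0.170 in IL-10- cells, with no overlap (exact permutation p = 0.0286, adjusted 0.0571; SD, n = 4 each). Mdh2 over Mdh1 was 0.959, 0.925, 0.964 and 0.957 in IL-10+ libraries and 1.16, 1.03, 1.07 and 1.10 in IL-10- libraries, with no overlap. Where this ratio stands against 1 depends on the gene lengths used for FPKM, so it does not tell which transcript was more abundant. Recovered reads were 3867 to 7424 for Mdh1 and 6221 to 9932 for Mdh2 over the 8 libraries. The exact permutation p of Mdh2 over Mdh1 was again 0.0286 (adjusted 0.0571). Neither this ratio nor Idh2 over Idh1 passed after adjustment, although each differed in the same direction in 4 of 4 numbers. Both stood at the smallest p allowed, and with only these pairs there the adjusted p could not have been lower. Got2 over Got1 averaged 0.801 ± 0.151 in IL-10+ and 0.900 ± 0.213 in IL-10- cells, lower in 4 of 4 numbers but with overlapping groups (exact permutation p = 0.486, adjusted 0.486). Suclg2 over Sucla2 averaged 1.06 ± 0.0862 in IL-10+ and 1.13 ± 0.132 in IL-10- cells (exact permutation p = 0.486, adjusted 0.486).

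**Figure D4:**
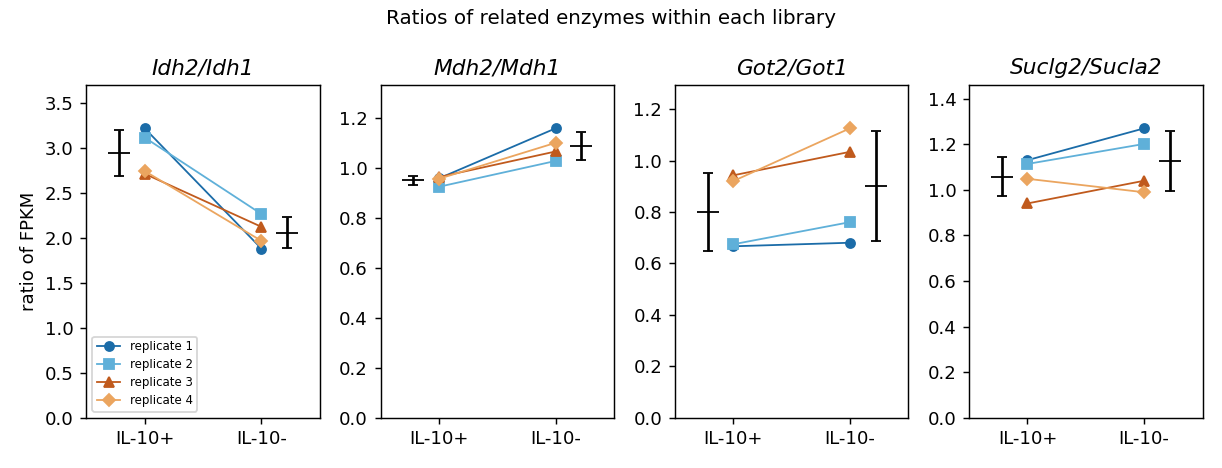
Ratios of FPKM of 4 pairs of related enzymes within each library, IL-10+ left of IL-10-; lines join libraries of the same replicate number, and the bars are the mean ± SD of 4 libraries. The groups do not overlap for Idh2 over Idh1, with means of 2.94 for IL-10+ against 2.06 for IL-10-, nor for Mdh2 over Mdh1, with means of 0.951 for IL-10+ against 1.09 for IL-10-.

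In fatty acid oxidation 1 of 12 tested members fell and 0 rose without the block, and 5 rose and 2 fell with it. Of all tested genes 9.18% were called lower without the block, and 20.4% higher and 33.3% lower with it. The median log2 difference of the 12 was 0.06, and it lay between 0.01 without IL-10- library 1 and 0.10 without IL-10+ library 1. Acadm encodes the dehydrogenase that starts the oxidation of medium-chain acyl-CoA. Its position in GRCm38 is chromosome 3, from 153922357 to 153944632 on the minus strand (ENSMUSG00000062908). Acadm measured 8.76, 8.64, 8.35 and 9.33 FPKM in IL-10+ libraries 1 to 4 and 9.80, 10.2, 10.7 and 10.7 FPKM in IL-10- libraries 1 to 4. Every IL-10+ library was below every IL-10- library. Means were 8.77 ± 0.413 FPKM in IL-10+ cells against 10.3 ± 0.429 FPKM in IL-10- cells (SD, n = 4 each). The log2 difference was -0.22 (SE 0.0587, adjusted p = 0.0330, with the block 0.00666). Leaving out a library kept the call in 2 of 8 fits, those without IL-10- library 1 and without IL-10+ library 4, with adjusted p between 0.0322 and 0.0980 over the 8, and other scalings without the block gave 0.0683 and 0.0628.

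The 250 bases before the RefSeq start of Acadm are shown because it fell without the block (GRCm38.p6, chr3:153944644-153944893, minus strand, 5′ to 3′). Capitals mark the NRF1 motif found on the reverse strand of this text.
Acadm: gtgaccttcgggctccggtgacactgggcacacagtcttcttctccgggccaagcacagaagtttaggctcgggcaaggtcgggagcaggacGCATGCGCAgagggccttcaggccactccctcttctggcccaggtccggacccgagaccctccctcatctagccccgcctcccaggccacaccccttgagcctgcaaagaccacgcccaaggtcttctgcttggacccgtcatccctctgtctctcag

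The dehydrogenases of longer chains had differences of the other sign. Acadl, the long-chain enzyme, measured 40.7, 46.6, 46.3 and 43.1 FPKM in IL-10+ libraries and 36.1, 38.0, 40.5 and 38.1 FPKM in IL-10- libraries. Every IL-10+ library was above every IL-10- library, with a log2 difference of 0.20 (SE 0.0685, adjusted p = 0.0715, with the block 0.00328). Acadvl, the very-long-chain enzyme, averaged 12.2 ± 0.541 FPKM in IL-10+ cells against 11 ± 0.800 FPKM in IL-10- cells (SD, n = 4 each), a log2 difference of 0.14 (adjusted p = 0.182, with the block 0.0413). As 42.9% of the exon length of Acadvl overlaps Dvl2 on the other strand, and the sources used here do not give whether counting used the strand, this value is uncertain. Acadl over Acadm, a ratio chosen after the values were seen and so given with no test, was 5.05 ± 0.490 in IL-10+ and 3.69 ± 0.0877 in IL-10- cells (SD, n = 4 each), with no overlap.

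Hadha and Hadhb encode the α and β subunits of the mitochondrial trifunctional protein, which carries out the last steps of a round on long chains. They lie head to head on chromosome 5 of GRCm38, Hadha at 30118304 to 30155162 on the minus strand and Hadhb at 30155248 to 30184593 on the plus strand. The 85 bases between their annotated starts are shown because both genes are transcribed away from them (GRCm38.p6, chr5:30155163-30155247, plus strand, 5′ to 3′).
Hadha-Hadhb: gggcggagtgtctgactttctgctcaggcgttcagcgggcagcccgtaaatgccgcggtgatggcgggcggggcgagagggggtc

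Hadhb measured 10.5, 11.7, 11.5 and 10.5 FPKM in IL-10+ libraries and 9.39, 10.5, 9.46 and 9.50 FPKM in IL-10- libraries, higher in IL-10+ cells in each number, with a log2 difference of 0.17 (adjusted p = 0.107, with the block 0.00981). Hadha averaged 23.4 ± 1.42 FPKM in IL-10+ cells against 24.0 ± 1.19 FPKM in IL-10- cells (SD, n = 4 each) and passed in neither fit (adjusted p = 0.766, with the block 0.364). Hadhb over Hadha, also chosen after the values were seen and not tested, was 0.473 ± 0.0307 in IL-10+ and 0.406 ± 0.0246 in IL-10- cells, with no overlap.

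Cpt1a, which loads acyl groups onto carnitine at the outer mitochondrial membrane and is the controlled step of import, measured 7.98, 7.93, 4.90 and 4.87 FPKM in IL-10+ libraries and 7.51, 5.91, 4.21 and 3.78 FPKM in IL-10- libraries. Numbers 1 and 2 stood above 3 and 4 in both groups, and the log2 difference was 0.23 (SE 0.222, adjusted p = 0.517, with the block 0.0186). Cpt2, which releases the acyl groups inside, averaged 6.39 ± 0.402 FPKM in IL-10+ cells against 6.60 ± 0.294 FPKM in IL-10- cells (SD, n = 4 each) and passed in neither fit. Echs1, the short-chain enoyl-CoA hydratase, averaged 3.32 ± 0.624 FPKM in IL-10+ cells against 3.77 ± 0.568 FPKM in IL-10- cells and fell with the block (adjusted p = 0.460, with the block 0.0346), though not when another scaling was added (0.0767 and 0.0704). Hadh, the hydroxyacyl-CoA dehydrogenase of short chains, averaged 4.54 ± 0.379 FPKM in IL-10+ cells against 4.72 ± 0.60 FPKM in IL-10- cells and passed in neither fit. Acaa2, a thiolase, averaged 14.9 ± 0.393 FPKM in IL-10+ cells against 13.9 ± 0.859 FPKM in IL-10- cells, with an adjusted p of 0.0520 with the block and of 0.0164 and 0.0212 when another scaling was added.

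Electrons from the acyl-CoA dehydrogenases pass through the electron transfer flavoprotein to its oxidoreductase, encoded by Etfdh, and on to ubiquinone. Etfdh measured 5.81, 5.88, 4.90 and 4.92 FPKM in IL-10+ libraries and 4.70, 5.10, 4.0 and 3.95 FPKM in IL-10- libraries. It was higher in IL-10+ cells in each number, with a log2 difference of 0.23 (SE 0.0942, adjusted p = 0.1255, with the block 0.00372). Etfa measured 47.5, 54.7, 61.7 and 57.2 FPKM in IL-10+ libraries and 46.1, 57.6, 55.0 and 58.7 FPKM in IL-10- libraries, higher in 2 of 4 numbers, and passed in neither fit (adjusted p = 0.907, with the block 0.692).

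**Figure D5:**
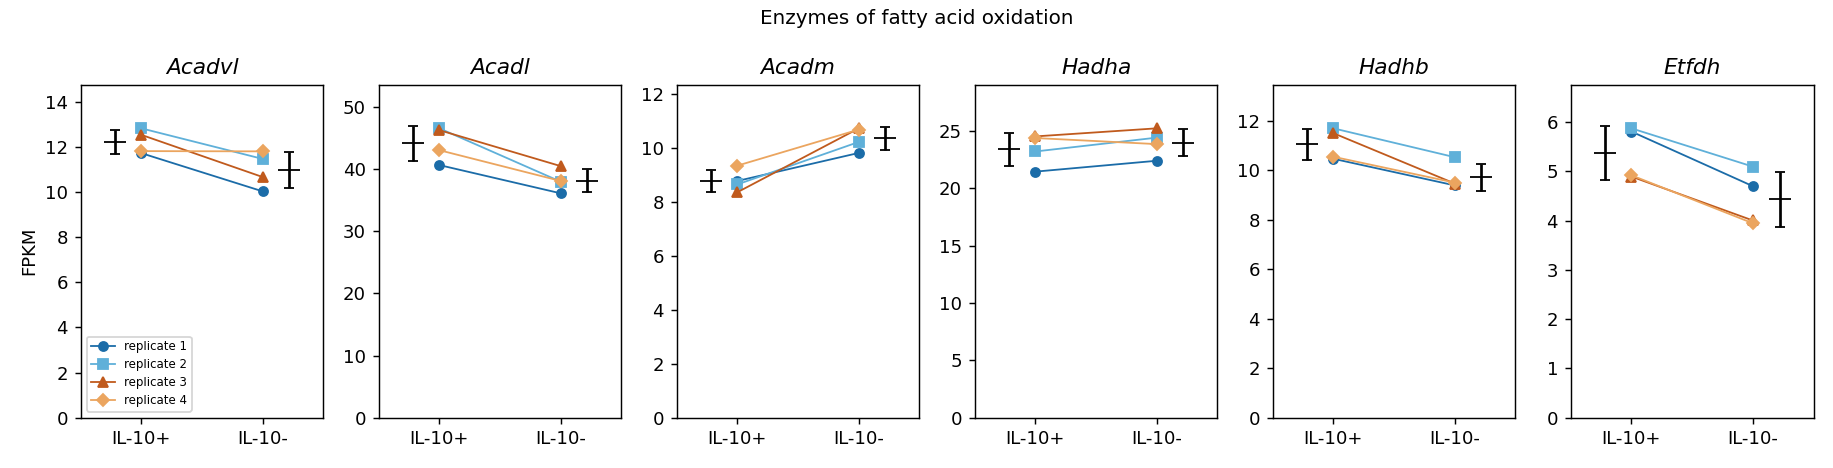
FPKM of the acyl-CoA dehydrogenase genes Acadvl, Acadl and Acadm, of Hadha and Hadhb, and of Etfdh in each library, IL-10+ left of IL-10-; lines join libraries of the same replicate number, and the bars are the mean ± SD of 4 libraries. Acadm climbs to the right in every number, whereas Acadl, Hadhb and Etfdh fall to the right in every number.

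Most members, like most tested genes, had a larger share of their variance between replicate numbers than between the sorted groups. The median share of variance of log2(FPKM + 1) lying between numbers was 81.4% over the 33 tested members and 55.8% over all tested genes, and the share between groups was 16.5% over the members and 27.5% over all tested genes. Numbers took the larger share in 24 members and the groups in 9, and numbers took it in 63.5% of all tested genes. The shares are plain sums of squares, and there are more numbers than groups. Numbers would thus tend to take the larger share even with no effect of either, so this order is not by itself a result. Number 1 was the lowest of its group, in both groups, in 21 of the 34 members. The share over all tested genes was not counted for this, so it cannot be read as particular to the members. In 13 members, among them Idh3a, Fh1, Mdh1, Mdh2, Me2 and Got2, numbers 1 and 2 lay below 3 and 4 in both groups, against 21.4% of all tested genes. In Cpt1a, Echs1 and Etfdh numbers 1 and 2 lay above 3 and 4 in both groups, against 24.9% of all tested genes. The sources used here do not say what distinguishes the numbers. Within numbers 1 and 2 alone limma called 0 members, against 9.76% of all tested genes (6.94% higher and 2.82% lower). At an unadjusted p under 0.05 that fit gave 2 members and 2911 of the 11329 tested genes. Within 3 and 4 alone limma called 3, Mdh1 and Got1 as higher and Fh1 as lower (of all tested genes 23.4% called, 11.3% higher and 12.1% lower).

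Genes of the same pathways outside the list were counted next, 75 tested of 84 found. Without the block 7 rose and 8 fell, or 20.0%, close to the 19.7% of all tested genes (10.6% called higher, 9.18% lower). With the block 19 rose and 29 fell, against 53.7% of all tested genes (20.4% called higher, 33.3% lower). The split without the block was 8 higher and 4 lower with either of the other scalings, and with the block added it was 21 higher and 20 lower (median-of-ratios) or 22 higher and 21 lower. Glutamine and glutamate genes gave 3 higher and 2 lower of 18, and 9 higher and 4 lower with the block. Slc7a5, a carrier that exchanges glutamine for other large amino acids, averaged 270 ± 54.8 FPKM in IL-10+ cells against 167 ± 36.7 FPKM in IL-10- cells (log2 difference 0.70, adjusted p = 0.0343; SD, n = 4 each). Slc1a5, the main glutamine importer, averaged 123 ± 8.49 FPKM in IL-10+ cells against 97.3 ± 6.53 FPKM in IL-10- cells (0.33, adjusted p = 0.0162). Gfpt1, which uses glutamine to start hexosamine synthesis, averaged 19.6 ± 2.56 FPKM in IL-10+ cells against 11.1 ± 1.44 FPKM in IL-10- cells (0.76, adjusted p = 0.00206). Glul, glutamine synthetase, fell (-0.30, adjusted p = 0.0219), as did Slc25a11, the α-ketoglutarate carrier of the malate-aspartate shuttle (-0.27, adjusted p = 0.0275).

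Genes of fatty acid uptake, activation and further oxidation gave 3 higher and 2 lower of 25. That is 20% called, close to the 19.7% of all tested genes (10.6% called higher, 9.18% lower). With the block 4 were higher and 8 lower, against 20.4% and 33.3% of all tested genes. Cd36, a fatty acid transporter, averaged 87.1 ± 14.1 FPKM in IL-10+ cells against 51.2 ± 14 FPKM in IL-10- cells (log2 difference 0.78, adjusted p = 0.0323; SD, n = 4 each). Crat, carnitine acetyltransferase, averaged 5.65 ± 0.723 FPKM in IL-10+ cells against 3.38 ± 0.359 FPKM in IL-10- cells (0.60, adjusted p = 0.00265). Ehhadh, the bifunctional enzyme of peroxisomal oxidation, also rose (0.45, adjusted p = 0.00630). Acsl1, which activates long-chain fatty acids, fell (-0.32, adjusted p = 0.0161), as did Slc25a20, the mitochondrial carnitine-acylcarnitine carrier (-0.26, adjusted p = 0.0327).

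Pyruvate dehydrogenase and its control gave 1 higher and 1 lower of 12. Mpc2, a subunit of the mitochondrial pyruvate carrier, rose (0.34, adjusted p = 0.0248). Mpc1, of the same carrier, had a difference of the other sign (-0.33, adjusted p = 0.148, with the block 0.0117). As 23.1% of the exon length of Mpc1 overlaps 4930506C21Rik on the other strand, its value is uncertain. Pdpr, a regulatory subunit of pyruvate dehydrogenase phosphatase, fell (-0.29, adjusted p = 0.0412). Other TCA cycle genes gave 0 higher and 1 lower of 12, the lipoyl transfer gene Lipt2 (-0.51, adjusted p = 0.0388). Without the block 10.6% of all tested genes were called higher and 9.18% lower. With the block the pyruvate dehydrogenase list gave 3 higher and 6 lower, and the other TCA list 3 higher and 5 lower. Of all tested genes 20.4% were called higher and 33.3% lower with the block. Of the succinate dehydrogenase subunit genes, Sdhc averaged 26.1 ± 2.22 FPKM in IL-10+ cells against 21.6 ± 1.52 FPKM in IL-10- cells (adjusted p = 0.0558, with the block 0.00181), and Sdha averaged 83.8 ± 7.81 FPKM in IL-10+ cells against 92.9 ± 7.87 FPKM in IL-10- cells (adjusted p = 0.309, with the block 0.00416). Regulators gave 0 higher and 2 lower of 8 (9.18% of all tested genes called lower), and 1 lower, Ppargc1b, under either other scaling. With the block 6 regulators were lower and 0 higher. When either other scaling was added to the block, 3 were lower, against 26.5% (median-of-ratios) and 27.5% of all tested genes. Ppargc1b, a coactivator of mitochondrial genes, averaged 2.24 ± 0.368 FPKM in IL-10+ cells against 3.33 ± 0.357 FPKM in IL-10- cells (-0.42, adjusted p = 0.0185). Esrra, the nuclear receptor ERRα, averaged 8.03 ± 0.235 FPKM in IL-10+ cells against 9.93 ± 1.06 FPKM in IL-10- cells (-0.27, adjusted p = 0.0407). Of these 15 calls, those of Gfpt1, Crat, Ehhadh and Acsl1 held in each of the 8 fits that left out a library. The calls of Glul, Slc25a11, Slc25a20, Cd36, Slc7a5, Slc1a5, Mpc2, Pdpr, Lipt2, Ppargc1b and Esrra each failed in at least 1 of those fits, the last in 7 of 8. The lower calls of Slc25a11, Slc25a20, Pdpr and Esrra were also lost under both other scalings without the block.

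The RefSeq promoter windows, 250 bases before to 50 after the start, were searched on both strands for 5 motifs, in 31 members with a window and in all 27025 genes with one. The NRF1 motif TGCGCATGC lay in 4 of 31 members (12.9%, against 1.72% of all windows), namely Ogdh, Glud1, Acadm and Etfdh. With the block Acadm was lower, Etfdh was higher and the other two passed in neither direction. The E-box CACGTG lay in Ogdh and Pcx (6.45%, against 8.09%), and the ETS motif CCGGAAGT in Dlst and Cpt2 (6.45%, against 4.31%). The ERR motif TCAAGGTCA (0.466% of all windows) and the UPR motif TGACGTGG (0.714%), which shares the letters ACGTG with the E-box, lay in 0 members. The windows of all genes include genes not expressed here, whereas nearly all members passed the filter, so the shares are not matched for expression. These are matches of letters in a window and not measured binding.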

How the data were processed

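Messenger RNA of 8 libraries was analysed, 4 of IL-10+ and 4 of IL-10- B cells, grouped by their titles. The deposited table holds FPKM, which the authors made from read counts, gene length and library totals. HISAT2 2.1.0, HTSeq 0.6.0 and the build mm10 are named per the submitters' processing notes. The sources used here do not give the annotation, the strand setting or how shared reads were counted. The labels tag the samples as untreated although their protocols describe LPS, and the protocols were followed. Of 26589 identifiers 26550 were matched to GENCODE M21 symbols.

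In each library 93.5% to 93.6% of values above 0 gave whole reads within 0.05 once multiplied by gene length and a library total, which gave the totals printed. FPKM are not counts, so limma 3.58.1 (R 4.3.3) was run with a variance trend on the log2 scale after adding 1 to each FPKM, under a filter of at least 1 FPKM in at least 4 libraries, and Benjamini-Hochberg adjustment over all 11329 genes. On this scale the changes of low genes are understated. The fit without the block was tested on simulated data in which libraries of a number did not deviate together. That test therefore does not bear on the blocked fits.

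The replicate numbers are shared by the groups. Once the group means were removed, the libraries of a number correlated across genes, at 0.712, 0.583, 0.621 and 0.700 for numbers 1 to 4. These were in every case the highest correlations with a library of the other group, so the numbers were taken to pair the samples, which rests on the data and not on the labels. Blocked values stand beside results whose call they change. Alternatives were pseudocounts, filters, scalings, no variance trend, subsets of numbers and leaving out libraries.

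Values in every library are given for called members and the 2 most abundant uncalled members of each role. Up to 6 called other pathway genes in each direction, by size of change, are given by group means or log2 differences. Slc1a5, Slc25a20, Esrra, Mpc1, the succinate dehydrogenase genes and further members given by library were chosen after their values were seen. Members and lists were chosen with earlier results of these data known. Some items of the further lists are not reported here. No protein sequences were used here.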

Additional observations from a re-analysis of the deposited data

Results flagged for a closer look

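Of 108 groups of 4 libraries examined, 1 held a library far from the other 3: Hadhb in IL-10- libraries, where replicate 2 was highest at 10.5 FPKM, the next was 9.50 and the lowest 9.39. The gap was 0.902 of the range, over the limit of Dixon's test for 4 values at the 95% level. Chance alone gives such a gap in about 1 of 20 groups. In IL-10+ libraries replicate 2 was also the highest, at 11.7 FPKM.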

How the results depend on the processing

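Called members numbered 1 higher and 1 lower. The higher count became 11 with the replicate block, 13 with the block and either other scaling, 2 with median-of-ratios scaling, 3 without immunoglobulin and mitochondrial genes, 2 with no variance trend, 0 within replicates 1 and 2, 2 within replicates 3 and 4, and 1 to 2 without a library. The lower count became 8 with the replicate block, 6 with the block and either scaling, 0 with each scaling alone (limma, 8 and 11 members of either direction at an unadjusted p under 0.05), 0 within replicates 1 and 2 (2 at an unadjusted p under 0.05), and 0 to 1 without a library. Of all tested genes, limma gave an unadjusted p under 0.05 for 3507 of 11332 with median-of-ratios scaling and 3481 of 11329 with the other scaling. Within replicates 1 and 2 it did so for 2911 of 11329. With the block, leaving out a number gave 8 to 10 higher and 6 to 9 lower, and all tested genes were not counted in those fits. A pseudocount of 0.1, no filter and a filter of 5 FPKM changed neither count. For other pathway genes, 7 higher became 4 with no filter, 19 with the replicate block, 21 and 22 with the block and scalings, 3 within replicates 1 and 2, 13 within replicates 3 and 4, and 4 to 7 without a library. The 8 lower became 2 with no filter, 4 with a filter of 5 FPKM, 29 with the block, 4 with each scaling, 20 and 21 with the block and scalings, 0 within replicates 1 and 2 (16 of either direction at an unadjusted p under 0.05), and 2 to 7 without a library. The causes were not tested. Ratio differences kept their sign whichever library was left out, with adjusted exact p of 0.0571 to 0.114 for Idh2 over Idh1 and for Mdh2 over Mdh1.

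Uncalled members turned sign near 0. With median-of-ratios scaling, with or without the block, log2 differences were 0.022 for Aco1, 0.0088 for Dlst, 0.018 for Suclg1, 0.037 for Glud1 and 0.0054 for Hadha. Without immunoglobulin and mitochondrial genes they were 0.015 for Aco1, 0.0023 for Dlst, 0.011 for Suclg1 and 0.030 for Glud1. Within replicates 1 and 2 they were -0.017 for Cs, 0.031 for Aco1, 0.028 for Cpt2 and -0.016 for Etfa, and within replicates 3 and 4 -0.012 for Idh3g, 0.031 for Dlst and 0.044 for Suclg1. Leaving out a library gave -0.096 to 0.025 for Aco1, -0.043 to 0.045 for Cs, -0.082 to 0.031 for Dlst, -0.052 to 0.092 for Etfa, -0.026 to 0.030 for Glud1, -0.11 to 0.0086 for Hadh, -0.066 to 0.0046 for Hadha, -0.024 to 0.050 for Idh3g, -0.26 to 0.0032 for Me2 and -0.11 to 0.090 for Suclg1. The scalings moved the median of all genes by 0.035 and 0.029. Etfb had 10 to 22 reads a library and was not tested.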
